A study of Mus musculus with 4 samples.

Results

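The glutathione, sulfo- and glucuronosyltransferases attach glutathione, sulfate or glucuronic acid to drugs, carcinogens, steroids, bile acids and bilirubin, so that these can be excreted. Genes of the 3 families were taken by current symbol: Gst followed by a class letter a, k, m, o, p, t or z and a digit, and Mgst, Sult and Ugt1, Ugt2 or Ugt3 (with a or b) in the same way. A probe set of its own named 46 such genes among the 18193 genes of the array: 23 glutathione transferases, 13 sulfotransferases and 10 glucuronosyltransferases. The members were read by 59 probe sets, with several probe sets for 11 members and 1 for the other 35. A further 5 probe sets were annotated to more than 1 gene of these families or a close relative, among them all 8 Ugt1a genes on the array, and are reported separately without a gene name.

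Liver and duodenum were compared across genotype, with wild-type animals as controls for animals carrying a transgene for a constitutively activated aryl hydrocarbon receptor (CA-AhR), and RNA was measured on Affymetrix Mouse Genome 430 2.0 arrays. Each of the 4 groups (wild-type liver, transgenic liver, wild-type duodenum, transgenic duodenum) was 1 array of RNA pooled from 3 female mice aged 5 to 6 weeks, kept on standard chow. The sources used here do not give the promoter that drives the transgene, the cells that express it or the strain background. With 1 pooled array per group, no ratio below has a replicate error, a confidence interval or a test, and the spread between animals is unknown.

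The aryl hydrocarbon receptor (AhR) is a ligand-activated transcription factor that pairs with ARNT and binds the xenobiotic response element. Its textbook targets are Cyp1a1 and other phase I enzymes, and several conjugating enzymes are counted in the same battery, some of them also as targets of the oxidant sensor NRF2 through the antioxidant response element. Glutathione transferases are mostly soluble enzymes of the alpha, mu, pi, theta, kappa, omega and zeta classes plus a membrane-bound microsomal group. Cytosolic sulfotransferases use the donor PAPS, and glucuronosyltransferases sit in the endoplasmic reticulum and use UDP-glucuronic acid.

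The AhR activity genes separated the genotypes in both tissues. In liver 6 of 7 measured genes were at least 2-fold higher in the transgenic array, with Cyp1a1, the main AhR-induced monooxygenase, at a signal of 1403.5 in wild-type and 47625.8 in transgenic liver. In duodenum 4 of 6 were, with Cyp1a1 at 2109.5 and 20795.8. Nqo1, a quinone reductase shared by AhR and NRF2, was 2.36-fold higher in transgenic liver, while in duodenum its signals were 827.1 and 621.9. The tissue labels held: 11 of 12 hepatocyte markers were higher in wild-type liver and 11 of 11 enterocyte markers higher in wild-type duodenum, and Ahsg, Fgb, Tdo2 and Tat were below the signal floor in both duodenum arrays. The floor is 129.3, the mean 40th percentile of the arrays, to which lower signals were raised; a gene below it on both arrays compared was left out of that comparison. A gene was called higher or lower at 2-fold or more.

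Both transgenic arrays differed from their controls in more than these genes. In liver 8 of 11 fibroblast and stellate cell markers were higher in the transgenic array (summed signal 9887.9 in wild-type, 27006.3 in transgenic), as were 3 of 11 enterocyte, 2 of 4 goblet cell and 2 of 3 bile duct markers, while none of 12 hepatocyte markers passed 2-fold and their median log2 ratio was -0.35. These 3 enterocyte and 2 bile duct markers were below the floor in wild-type liver and dim, from 289.8 to 307.7, in transgenic liver. In duodenum all 13 exocrine pancreas markers above the floor were higher in the transgenic array (summed signal 4787.6 in wild-type, 144276 in transgenic), as were 6 of 7 Brunner gland and stomach markers (3813.8 and 159208), while 1 of 11 enterocyte markers was. The 3′ to 5′ signal ratio of the Gapdh control, which grows as RNA is shortened, was 0.608 and 0.719 in wild-type and transgenic liver but 1.03 and 3.07 in wild-type and transgenic duodenum. The part of tissue make-up and RNA quality in the genotype ratios was not tested, and in such samples fewer cells of a type cannot be told apart from less RNA per cell.

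**Figure D1:**
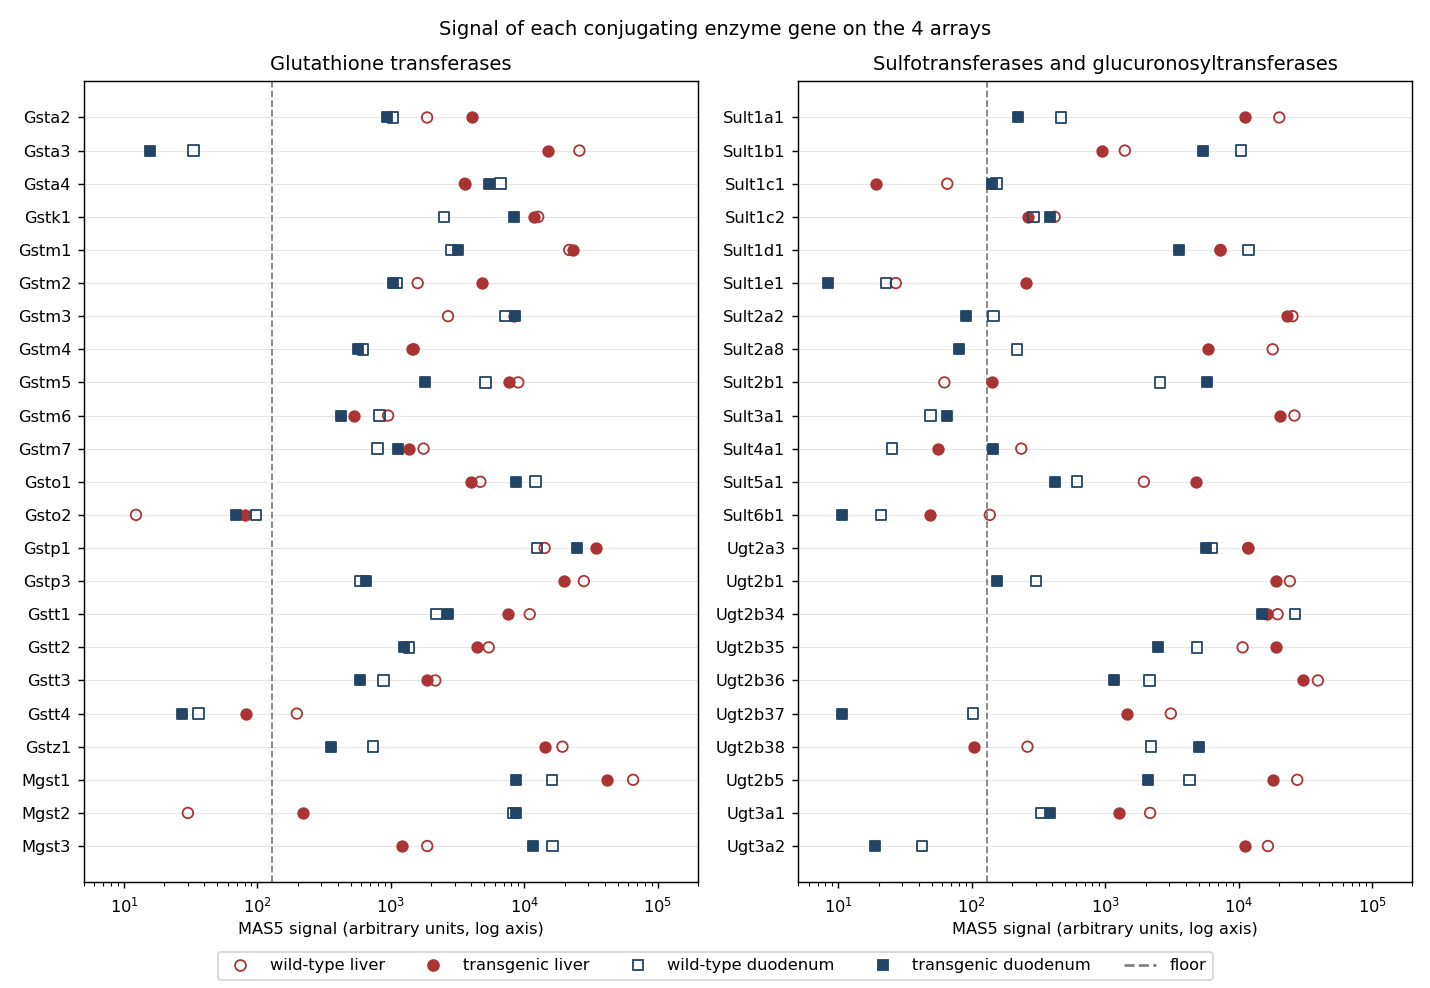
Array signal (arbitrary units, log axis) of each of the 46 genes on the 4 arrays, with circles for liver, squares for duodenum, open symbols for wild-type and filled symbols for transgenic; the dashed line is the floor of 129.3. Glutathione transferases fill the left panel and the other classes the right one; Gsta3, Sult3a1 and Ugt3a2 lie far to the right in both livers and below the floor in both duodenums, and Mgst2 does the reverse in the wild-type arrays.

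In the wild-type tissues, 34 of the 46 genes were above the floor in both, 7 in liver alone, 3 in duodenum alone and 2 in neither. Over all 18193 genes, 12749 were above it in wild-type liver, 13716 in wild-type duodenum and 14982 in at least 1 of these. Those above it in wild-type liver alone were Gsta3, Gstt4, Sult3a1, Sult4a1, Sult6b1, Ugt2b37 and Ugt3a2, and those in wild-type duodenum alone were Mgst2, Sult1c1 and Sult2b1. Some were near the floor: Sult6b1 (136.2), Gstt4 (197.4) and Sult4a1 (234.4) in wild-type liver, and Sult1c1 (152.4) in wild-type duodenum. Their tissue bounds ran from 1.05-fold to 1.81-fold, and none was called. Gsto2 and Sult1e1 were below the floor in both wild-type tissues, and Gsto2 remained below it on all 4 arrays. Of the 44 genes measured between wild-type liver and duodenum, 23 were called higher in liver and 7 higher in duodenum, 52.3% and 15.9%, where over all genes 13.7% were higher in liver and 18.7% higher in duodenum. At 1.5-fold, 28 were higher in liver and 9 higher in duodenum, beside 21.9% and 32.7% of all genes.

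The median of each class was higher in liver than in duodenum. For glucuronosyltransferases the median log2 ratio of wild-type liver over wild-type duodenum was 2.70 over 10 genes, for glutathione transferases 1.00 over 22, and for sulfotransferases 0.69 over 12, against -0.18 over all genes. These values depend on genes at the floor on 1 array. Over the genes above it on both, the medians were 1.91 (8 glucuronosyltransferases), 1.15 (19 glutathione transferases) and 1.66 (7 sulfotransferases). The 8 Ugt1a genes enter no class median, and their 3 shared probe sets were 1.26-fold, 1.31-fold and 2.15-fold higher in wild-type liver, from wild-type duodenum signals of 29129.2, 43169.3 and 12736.7. The classes were not tested against each other, since genes on 1 array are not replicates.

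Among glutathione transferases the liver-rich members were Gsta3, Gstp3, Gstz1 and Gstm1. Gsta3, an alpha-class enzyme known in mice for detoxifying the aflatoxin epoxide, gave 25829.8 in wild-type liver and 33.1 in wild-type duodenum, at least 200-fold (199.77, counted from the floor). Its second probe set gave 9366.4 and 75.4, a bound of 72.4-fold. The tissue ratio of Gsta3 moved by over 1.5-fold under 4 of 8 alternatives. With no floor, where the second probe set becomes the one read, its log2 ratio went from 7.64 to 6.96. With the mean of its probe sets it was 6.91. Gstp3, a pi-class gene, gave 27902.1 and 587.1 (47.5-fold), and Gstz1, the maleylacetoacetate isomerase of tyrosine breakdown, 19285.0 and 734.5 (26.3-fold). Gstm1, a mu-class enzyme, gave 21676.0 and 2824.2 (7.68-fold). The reverse held for Mgst2 and Mgst3, microsomal enzymes that can make leukotriene C4, with Mgst2 at 30.1 in wild-type liver and 8242.0 in wild-type duodenum (at least 63.7-fold higher in duodenum) and Mgst3 at 1871.9 and 16176.0 (8.64-fold). Gsto1 of the omega class and Gstm3 were also called higher in duodenum, with log2 ratios of -1.37 and -1.43.

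Of the 12 sulfotransferases measured, 5 were called higher in liver and 2 higher in duodenum. Sult2a2 and Sult2a8, of the subfamily that sulfates bile acids and hydroxysteroids, gave 25228.0 against 145.8 (173-fold) and 17943.6 against 217.1 (82.7-fold) in wild-type liver against wild-type duodenum. Sult3a1, an amine sulfotransferase, gave 26114.1 against 49.0 (at least 202-fold), and the phenol enzyme Sult1a1 gave 20106.4 against 466.9 (43.1-fold). Called higher in duodenum were Sult2b1, which sulfates cholesterol and pregnenolone, at 62.2 against 2562.9 (at least 19.8-fold), and Sult1b1, a thyroid hormone and phenol enzyme, at 1399.0 against 10393.4 (7.43-fold). Sult1d1, which acts on catecholamines and eicosanoids, gave 7291.8 and 11771.1, a log2 ratio of -0.69 that misses 2-fold.

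Within the glucuronosyltransferases, Ugt2b1 (24116.1 and 303.4, 79.5-fold), Ugt2b36 (39143.7 and 2147.8, 18.2-fold) and Ugt3a2 (16522.0 and 42.4, at least 128-fold) were among the liver-rich genes. Ugt2b38 alone in this class was called higher in duodenum, at 260.9 in wild-type liver and 2194.5 in wild-type duodenum (8.41-fold). Ugt2a3 and Ugt2b34 missed 2-fold in either direction, with log2 ratios of 0.90 and -0.43.

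**Figure D2:**
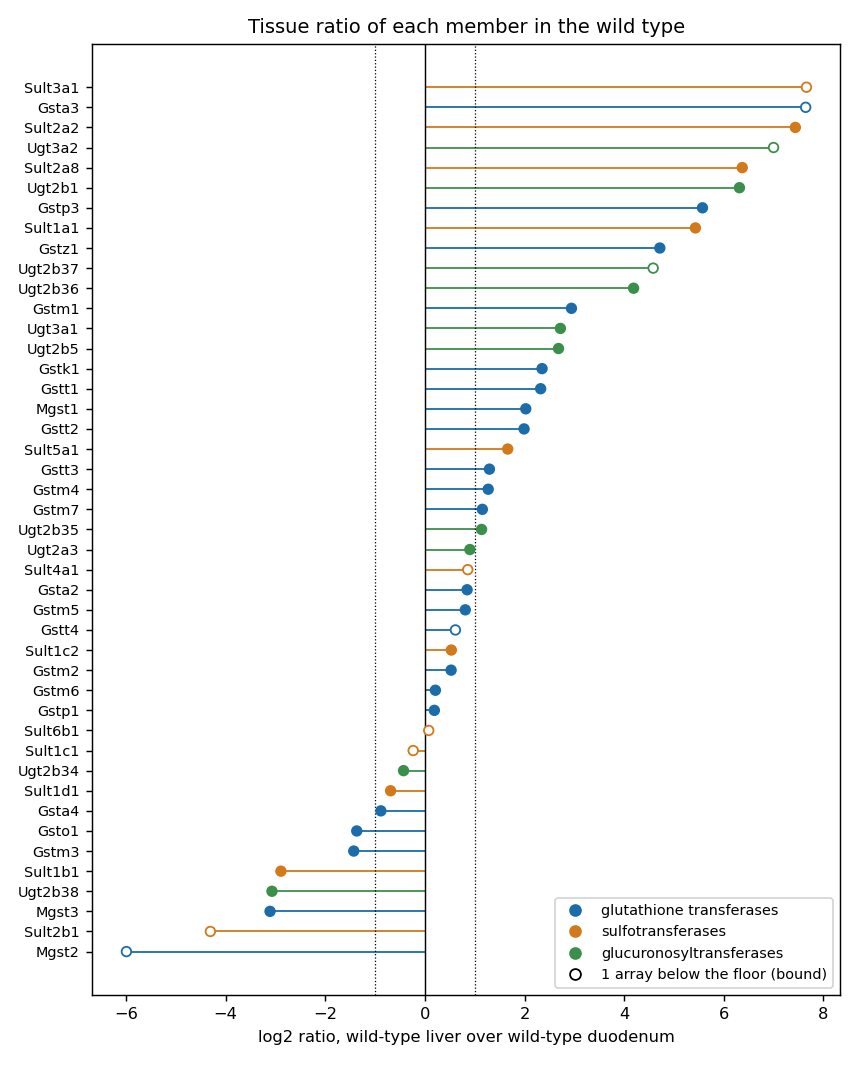
Log2 ratio of signal in wild-type liver over wild-type duodenum for each of the 44 genes above the floor on at least 1 of the arrays. Genes are sorted by this ratio and coloured by class. Open symbols are bounds with 1 array at the floor and dotted lines mark 2-fold. Of 10 glucuronosyltransferases 7 are called to the liver side, with Ugt2b38 at -3.07, and Mgst2 at -5.99 and Sult3a1 at 7.66 mark the ends.

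In liver the transgenic array was called higher for 5 of the 44 measured genes and lower for 3. These shares, 11.4% and 6.82%, stand beside 4.77% higher and 3.63% lower over all genes tested. The higher genes were 4 glutathione transferases, Gsta2, Gstm2, Gstm3 and Gstp1, and the sulfotransferase Sult5a1. The lower genes were Sult2a8, Ugt2b37 and Ugt2b38. Of the 36 genes within 2-fold, 31 had negative log2 ratios on the deposited scale. Over all 44 it was 34, where 48.8% of all genes were negative.

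Gstm3 read 2678.7 in control liver and 8408.5 with the transgene (3.14-fold higher), with 7220.2 in wild-type and 8500.1 in transgenic duodenum. Gstm2, a second mu-class enzyme, read 1586.7 and 4813.2 in the livers (3.03-fold), with 1103.5 and 1036.2 in the duodenums. For Gstm3 the transgenic liver thus reached the level of both duodenum arrays, while for Gstm2 it stood above the other 3 arrays. Gstp1, the pi-class enzyme, read 14174.4 and 34569.7 in the livers (2.44-fold), and 12444.7 and 24730.0 in wild-type and transgenic duodenum (1.99-fold). Gsta2, an alpha-class enzyme and a standard AhR and NRF2 target in rodents, gave 1867.0 and 4056.4 in the livers (log2 ratio 1.12) and 1039.2 and 927.4 in the duodenums. Each of the 4 was highest in the transgenic liver, except that Gstm3 was as high in the transgenic duodenum.

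The mu-class genes lie side by side, in the RefSeq order Gstm5, Gstm7, Gstm6, Gstm3, Gstm2, Gstm1, Gstm4, and the adjacent Gstm3 and Gstm2 were the pair called higher in liver. Their neighbours gave log2 ratios of -0.85 (Gstm6, 952.9 and 529.1 in the livers) and 0.10 (Gstm1, 21676.0 and 23199.6). Gstm5, Gstm7 and Gstm4, at the ends of the row, gave -0.23, -0.36 and -0.05. A second probe set of Gstm3 gave 505.2 and 1067.2, a log2 ratio of 1.08 beside the 1.65 of the first, and 3 further probe sets of Gstm1 gave 0.05 to 0.64. The copies are similar in sequence, and hybridization of the transcript of another copy to a probe set was not tested.

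The other 18 glutathione transferases measured stayed within 2-fold in liver, 16 of them with negative ratios on the deposited scale. Mgst1, the abundant microsomal enzyme of liver, gave 65261.6 and 41410.3 (log2 ratio -0.66), Gsta3 25829.8 and 15039.4 (-0.78), and Gstz1 19285.0 and 14349.5 (-0.43). Gstt1, a theta-class enzyme that acts on dichloromethane, gave 10972.4 and 7595.9 (-0.53), and the other theta-class genes, Gstt2, Gstt3 and Gstt4, gave -0.29, -0.20 and a bound of -0.61. Gstp3, a pi-class gene near Gstp1, gave 27902.1 and 19764.6 (-0.50) where Gstp1 was higher. Gsta4, which conjugates the lipid peroxidation product hydroxynonenal, gave 3578.8 and 3561.6, and Gstk1, of peroxisomes and mitochondria, 12690.9 and 11862.2, log2 ratios of -0.01 and -0.10. Mgst2 was at 30.1, below the floor, in wild-type liver and at 219.3 in transgenic liver, where its bound is a log2 ratio of 0.76. Gsto1 gave 4677.6 and 3983.3 (-0.23) and Mgst3 1871.9 and 1200.8 (-0.64).

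Of the sulfotransferases, Sult5a1, whose substrates are little described, gave 1943.4 in control liver and 4790.7 with the transgene (2.47-fold higher), and 614.8 and 418.1 in the duodenums. Sult2a8 gave 17943.6 and 5865.1 (3.06-fold lower), the lowest ratio of the 44 genes measured in liver, while its relative Sult2a2 gave 25228.0 and 23103.7, a log2 ratio of -0.13. Sult1a1 gave 20106.4 and 11157.3 (-0.85), Sult3a1 26114.1 and 20278.2 (-0.36), and Sult1b1 1399.0 and 943.2 (-0.57). Sult1e1, the estrogen sulfotransferase, was above the floor on the transgenic liver array alone, at 252.2 against 26.9 in wild-type liver and 22.8 and 8.4 in the duodenums. Raised to the floor, that is at least 1.95-fold, just under the 2-fold line, and it is called at a lower floor. Sult1d1 gave 7291.8 and 7220.5 (-0.01), Sult1c2 416.9 and 264.7 (-0.66). The dim Sult4a1, Sult6b1 and Sult2b1 each had an array under the floor, with bounds of -0.86, -0.08 and 0.13, and Sult1c1 was under it in both livers.

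Among the glucuronosyltransferases 9 of 10 ratios were negative on the deposited scale, while the class median turns from -0.47 to 0.21 on the spiked-control scale described below. Ugt2b37 read 3094.8 in control liver and 1453.6 with the transgene (2.13-fold lower), and Ugt2b38 gave 260.9 and 104.6 (at least 2.02-fold lower, with the transgenic array under the floor). Ugt2b5, Ugt2b1 and Ugt2b36, which act on steroids and other lipophilic substrates, gave log2 ratios of -0.60, -0.36 and -0.37, from wild-type signals of 27405.7, 24116.1 and 39143.7. Ugt2b34 and Ugt2a3 gave -0.26 and -0.01, and Ugt3a2 -0.57 from 16522.0 and 11099.1. The exception was Ugt2b35, at 10678.1 and 19042.8 (1.78-fold higher), between Ugt2b1 and Ugt2b36 in RefSeq order. The 3 probe sets shared by the Ugt1a genes, which include Ugt1a1 for bilirubin and the AhR target Ugt1a6, gave wild-type and transgenic liver signals of 36803.9 and 29051.6, 56368.3 and 45331.9, and 27350.1 and 24032.9, log2 ratios of -0.34, -0.31 and -0.19. Ugt1a genes have their own first exons and share the rest, so these probe sets give no value for a single Ugt1a gene.

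The 3 classes can be set beside each other by their medians. In liver the median log2 ratio was -0.23 for glutathione transferases (4 higher and 0 lower of 22), -0.25 for sulfotransferases (1 and 1 of 12) and -0.47 for glucuronosyltransferases (0 and 2 of 10), with 0.01 over all genes. At 1.5-fold the counts were 5 higher and 5 lower, 2 and 4, and 1 and 4, beside 13.7% higher and 12.1% lower over all genes. The calls upward were thus mostly glutathione transferases, 4 of 5, and no glucuronosyltransferase was called higher. These genes are bright, and bright genes as a whole were lower in the transgenic liver: among the 403 genes with a mean signal of 10000 or more the median was -0.25 and 77.4% were negative, and the 18 members among them had a median of -0.37 with 15 negative. Of the 17 members from 1000 to 10000, 13 were negative with a median of -0.23, where all genes of that brightness had 0.02 and 47.7%. The scale also matters here, since the 18 spiked hybridization control probe sets, added at fixed amounts, had a median log2 ratio of -0.68 (SD 0.16) in liver. On a scale set by them, the class medians in liver turn positive, at 0.45, 0.44 and 0.21, each below the all-gene median of 0.69. No member is called lower there and 8 are called higher, among them the 5 called higher on the deposited scale. The share of all genes called on the spiked-control scale was not computed, so the 8 have no background beside them.

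**Figure D3:**
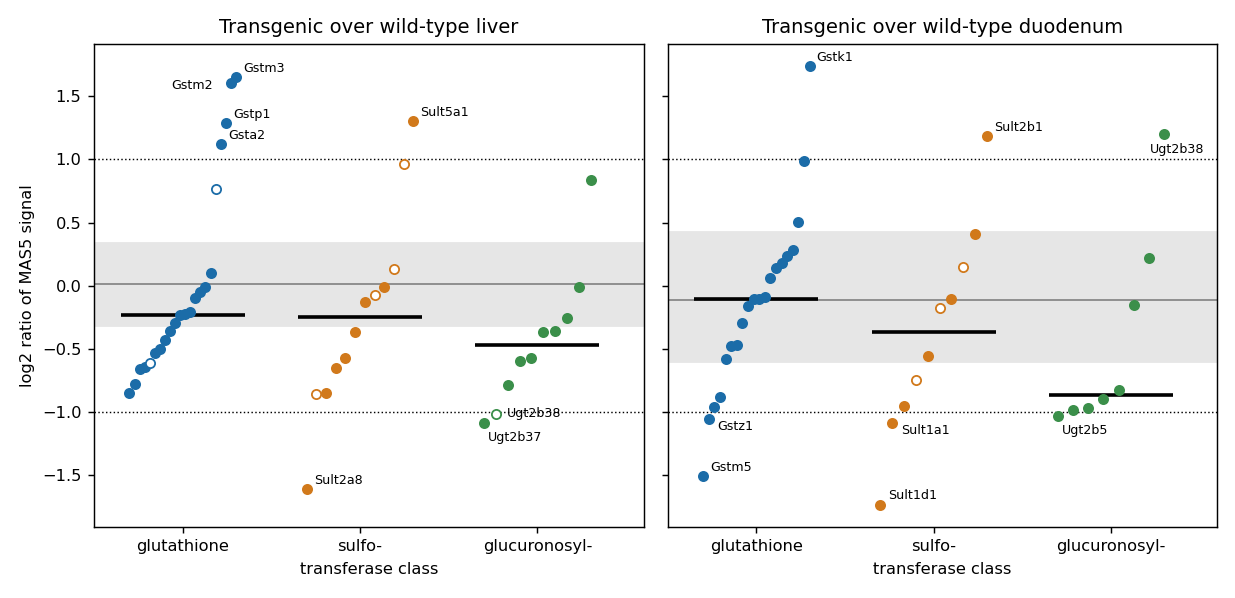
Log2 ratio of transgenic over wild-type signal for each gene by class, with liver on the left and duodenum on the right; black bars are class medians, the grey band spans the quartiles of all genes around their median, dotted lines mark 2-fold, and open symbols are bounds with 1 array at the floor. On this, the deposited, scale the liver glucuronosyltransferase median of -0.47 (0.21 on the spiked-control scale) lies below the grey band, and 4 glutathione transferases stand above the upper 2-fold line; in duodenum the glucuronosyltransferase median of -0.86 is the lowest of the 3.

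Promoter sequence was searched for both elements named above. RefSeq start sites (build GRCm38.p6) were in hand for 41 of the 46 genes, with 53 promoters of 250 bases before the start. The xenobiotic response element was searched on both strands as TNGCGTG and, for its inner part, as GCGTG, which every TNGCGTG contains. It was found in 2 of the 53 promoters (3.77%), those of Gsta2 and Sult1d1, beside 4.1% of all 32851 promoters, and GCGTG in 18.9%, beside 28.2%. The antioxidant response element was searched as TGACNNNGC and, more loosely, as TGANNNNGC, which includes it. The first was found in 7.55% of the members' promoters (Gsta3, Gstm5, Gstm7 and Mgst1), beside 10.2% of all, and the second in 35.8%, beside 35.2% of all. By class, TGANNNNGC was in 50.0% of glutathione transferase promoters (15 of 30), 28.6% of sulfotransferase promoters (4 of 14) and 0 of 9 glucuronosyltransferase promoters, which also held 0 GCGTG. These 9 belong to the Ugt2 and Ugt3 genes. Among 8 promoters of Ugt1a genes, TGANNNNGC was in 5 (62.5%), GCGTG in 2 (Ugt1a5 and Ugt1a8) and TNGCGTG in 1 (Ugt1a5). These 8 promoters include that of Ugt1a8, which the shared Ugt1a probe sets do not name, and lack Ugt1a6b, which they do. A match gives letters and not a bound site, and elements farther from the start were not searched.

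The promoters below are those of the 4 glutathione transferases called higher in transgenic liver, and of Sult1d1, the gene with the lowest ratio in duodenum. All run 5′ to 3′ on the gene's strand (minus in each case) and end at the base before the start, with the matches in capitals and positions given for a match's leftmost base. Gsta2 lies at chr9:78347146-78347395, Gstm3 at chr3:107969175-107969424, Gstm2 at chr3:107986421-107986670, Gstp1 at chr19:4037913-4038162 and Sult1d1 at chr5:87569007-87569256.
Gsta2: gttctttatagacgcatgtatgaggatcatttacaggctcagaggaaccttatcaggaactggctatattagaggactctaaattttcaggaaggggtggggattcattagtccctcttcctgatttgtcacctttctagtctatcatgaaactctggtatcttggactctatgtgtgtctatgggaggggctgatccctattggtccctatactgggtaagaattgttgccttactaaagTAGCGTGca
Gstm3: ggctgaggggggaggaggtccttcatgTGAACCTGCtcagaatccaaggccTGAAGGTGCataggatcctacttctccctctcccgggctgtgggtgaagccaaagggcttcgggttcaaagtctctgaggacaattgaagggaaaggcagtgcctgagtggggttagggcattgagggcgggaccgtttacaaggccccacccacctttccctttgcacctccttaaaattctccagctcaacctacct
Gstm2: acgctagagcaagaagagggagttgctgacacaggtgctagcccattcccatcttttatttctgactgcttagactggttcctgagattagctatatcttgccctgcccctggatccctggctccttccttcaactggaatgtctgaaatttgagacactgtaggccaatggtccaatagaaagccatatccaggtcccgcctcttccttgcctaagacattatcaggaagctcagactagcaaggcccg
Gstp1: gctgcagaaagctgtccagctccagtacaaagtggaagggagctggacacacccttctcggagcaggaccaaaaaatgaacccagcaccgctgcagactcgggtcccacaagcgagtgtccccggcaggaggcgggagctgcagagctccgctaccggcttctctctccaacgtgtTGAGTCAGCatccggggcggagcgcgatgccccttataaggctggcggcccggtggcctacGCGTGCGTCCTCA
Sult1d1: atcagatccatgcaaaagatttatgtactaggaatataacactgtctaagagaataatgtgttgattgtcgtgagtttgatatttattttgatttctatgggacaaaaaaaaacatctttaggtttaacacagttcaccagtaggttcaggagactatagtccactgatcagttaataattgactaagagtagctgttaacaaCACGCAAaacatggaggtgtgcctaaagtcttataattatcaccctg
Gsta2 holds TNGCGTG on the gene's strand starting at position -9, and Sult1d1 on the opposite strand at -47. Gstm3 holds TGANNNNGC at -223 and -199, and Gstp1 at -74 and, on the opposite strand, at -9, where it overlaps a GCGTG that starts at -13. Gstm2 holds none of the 4 patterns in this window. It was 3.03-fold higher in transgenic liver, and the chosen and second probe sets of Gstm3 were 3.14-fold and 2.11-fold higher. The part of these letters in the ratios was not tested.

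In duodenum 3 of 38 measured genes were called higher in the transgenic array and 5 lower, 7.89% and 13.2%, beside 8.82% and 11.3% over all genes, so neither share stood far from its background. Gstk1, Sult2b1 and Ugt2b38 were the higher genes, and Gstm5, Gstz1, Sult1a1, Sult1d1 and Ugt2b5 the lower ones. The pancreas and the Brunner gland and stomach markers had median log2 ratios of 5.43 and 3.11 between these arrays, larger than that of any of the 46 genes, and the part of this and of the Gapdh ratio given above was not tested.

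Gstk1 gave 2489.4 in wild-type and 8314.4 in transgenic duodenum (3.34-fold higher), below its 12690.9 and 11862.2 in wild-type and transgenic liver. Gstm5, a mu-class enzyme, gave 5134.2 and 1805.7 (2.84-fold lower), and Gstz1 gave 734.5 and 353.9 (2.08-fold lower). Gstp1, at 12444.7 and 24730.0, was 1.99-fold higher, just short of a call, and is the glutathione transferase closest to a call in both tissues. Mgst1 gave 16058.9 and 8722.5 (log2 ratio -0.88), Gstm6 824.7 and 425.0 (-0.96). Gsta2, Gstm2 and Gstm3, called higher in liver, gave -0.16, -0.09 and 0.24 in duodenum. The other measured members of the class, Gsta4, Gstm1, Gstm4, Gstm7, Gsto1, Gstp3, the theta-class Gstt1, Gstt2 and Gstt3, and Mgst2 and Mgst3, lay from -0.58 to 0.51, and Gsta3, Gsto2 and Gstt4 were under the floor in both duodenums.

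Among the sulfotransferases Sult2b1 gave 2562.9 in wild-type and 5819.9 in transgenic duodenum (2.27-fold higher). Sult1d1 gave 11771.1 and 3536.6 (3.33-fold lower), and its second probe set gave 7885.9 and 3533.8 (2.23-fold lower). In liver its ratio was near 0 on the log2 scale (-0.01). Sult1a1 gave 466.9 and 220.1 (2.12-fold lower) and Sult1b1, next to Sult1d1 in RefSeq order, 10393.4 and 5366.3 (log2 ratio -0.95). Sult2a2 and Sult2a8, at 145.8 and 217.1 in wild-type duodenum, were under the floor in transgenic duodenum. Sult1c2 gave 0.41, Sult1c1 -0.10 and Sult5a1 -0.56, Sult4a1 had a bound of 0.15, and Sult1e1, Sult3a1 and Sult6b1 were under the floor in both duodenums.

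Of the 8 glucuronosyltransferases measured in duodenum, 1 was called higher and 1 lower, and 6 ratios were negative. Ugt2b5 gave 4275.2 and 2087.9 (2.05-fold lower), and 4 others lay between log2 ratios of -0.98 and -0.82: Ugt2b1 (303.4 and 153.7), Ugt2b35 (4859.5 and 2482.5), Ugt2b36 (2147.8 and 1151.5) and Ugt2b34 (26325.5 and 14877.8). Ugt2a3 gave 6294.8 and 5665.8 (-0.15) and Ugt3a1 328.9 and 383.4 (0.22), and Ugt2b37 and Ugt3a2 were under the floor in both duodenums. Ugt2b38 gave 2194.5 in wild-type and 5058.2 in transgenic duodenum (2.30-fold higher). The 3 Ugt1a probe sets gave log2 ratios of 0.44, 0.16 and -0.62, which do not share a direction. The class median was -0.86 over 8 genes, that of the sulfotransferases -0.36 over 10 and that of the glutathione transferases -0.11 over 20, beside -0.11 over all genes. At 1.5-fold, 4 members were higher and 13 lower, beside 19.4% and 26% of all genes.

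Ugt2b38 and Ugt2b37, separated in RefSeq order by Ugt2a3, had the most alike promoters of the Ugt2b genes compared. Their starts align with an offset of 14 bases, and 94.1% of the 236 bases compared are equal, with 14 that differ. The next pair, Ugt2b38 and Ugt2b5, had 59.9%. They are shown because the tissue ratios of the 2 genes run in opposite directions: Ugt2b37 was at least 23.9-fold higher in wild-type liver than in wild-type duodenum, and Ugt2b38 was 8.41-fold lower. Ugt2b37 lies at chr5:87254789-87255038 and Ugt2b38 at chr5:87424204-87424453, both on the minus strand, with the differing bases in capitals.
Ugt2b37: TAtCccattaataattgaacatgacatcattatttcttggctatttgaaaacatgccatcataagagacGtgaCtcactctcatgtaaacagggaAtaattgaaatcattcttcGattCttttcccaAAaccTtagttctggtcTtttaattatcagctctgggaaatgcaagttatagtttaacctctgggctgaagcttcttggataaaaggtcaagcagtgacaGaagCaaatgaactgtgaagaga
Ugt2b38: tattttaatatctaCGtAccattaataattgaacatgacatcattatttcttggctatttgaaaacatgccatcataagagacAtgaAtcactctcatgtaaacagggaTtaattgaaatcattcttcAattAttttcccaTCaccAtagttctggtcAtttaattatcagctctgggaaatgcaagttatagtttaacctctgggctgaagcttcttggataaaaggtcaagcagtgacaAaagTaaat
None of the 4 patterns was found in either. The pairing of values with promoter letters is a description of these 2 genes, and near-copies of this family could also share probe sequence, which was not tested.

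Setting the tissues beside each other, 37 genes were measured in both genotype comparisons. Their log2 ratios were positive in both tissues for 5 genes, negative in both for 20, positive in liver and negative in duodenum for 4, and the reverse for 8. These are 13.5%, 54.1%, 10.8% and 21.6% of the 37 on the deposited scale, beside 25.3%, 28.9%, 26.2% and 19.5% of the 12964 genes measured in both. The 5 were Gstm1, Gstm3, Gstp1, Mgst2 and Sult2b1, of which Gstm1 and Gstm3 turn negative in duodenum under quantile and loess normalization. Gstm3 also turns negative there (-0.03) with probe sets ending in _s_at or _x_at left out. No glucuronosyltransferase was among the 5, and 5 of the 8 in that class were negative in both. Ugt2b35 and Ugt2b38 ran in opposite directions at 1.5-fold or more in each tissue: Ugt2b35 by 0.83 in liver and -0.97 in duodenum, and Ugt2b38 by a bound of -1.01 in liver and 1.20 in duodenum.

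**Figure D4:**
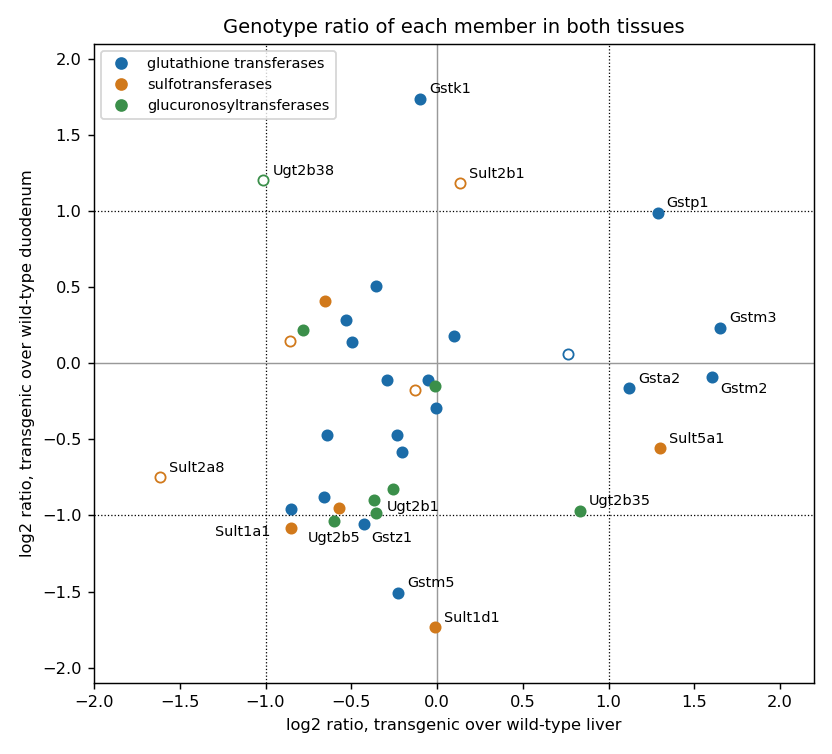
Log2 ratio of transgenic over wild-type signal in liver (horizontal) against duodenum (vertical) for the 37 genes measured in both, coloured by class; open symbols have 1 array at the floor in a tissue, and dotted lines mark 2-fold. Gstp1 lies at the upper right at 1.29 and 0.99, and 20 genes lie at the lower left, below 0 in both tissues.

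Where a gene had a second probe set, its direction in liver was the same as that of the chosen probe set in 10 of 10 cases, with a median absolute difference of 0.26 on the log2 scale and a largest of 0.57. In duodenum it was the same in 6 of 11, with a median of 0.57 and a largest of 1.52. The discordant cases included Mgst3, where the chosen probe set gave 16176.0 and 11645.8 in the duodenums (log2 ratio -0.47) and a dim second one 286.5 and 591.0 (1.04). For Gsto1 the chosen probe set gave 12092.0 and 8724.8 (-0.47) and the other 7604.5 and 14242.9 (0.91). Duodenal ratios of that size thus depend on the probe set. In liver, Ugt3a1, of the subfamily that uses sugar donors other than UDP-glucuronic acid, gave 2164.6 and 1257.5 (-0.78), and its second probe set 4877.0 and 1949.2 (-1.32). A probe set shared by Gsta1, Gsta2 and the predicted gene Gm3776 gave 1540.1 and 4601.1 in wild-type and transgenic liver (2.99-fold higher) and 14686.1 and 9242.8 in the duodenums, so its signal was highest in wild-type duodenum, and in liver it was higher in the transgenic array.

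**Figure D5:**
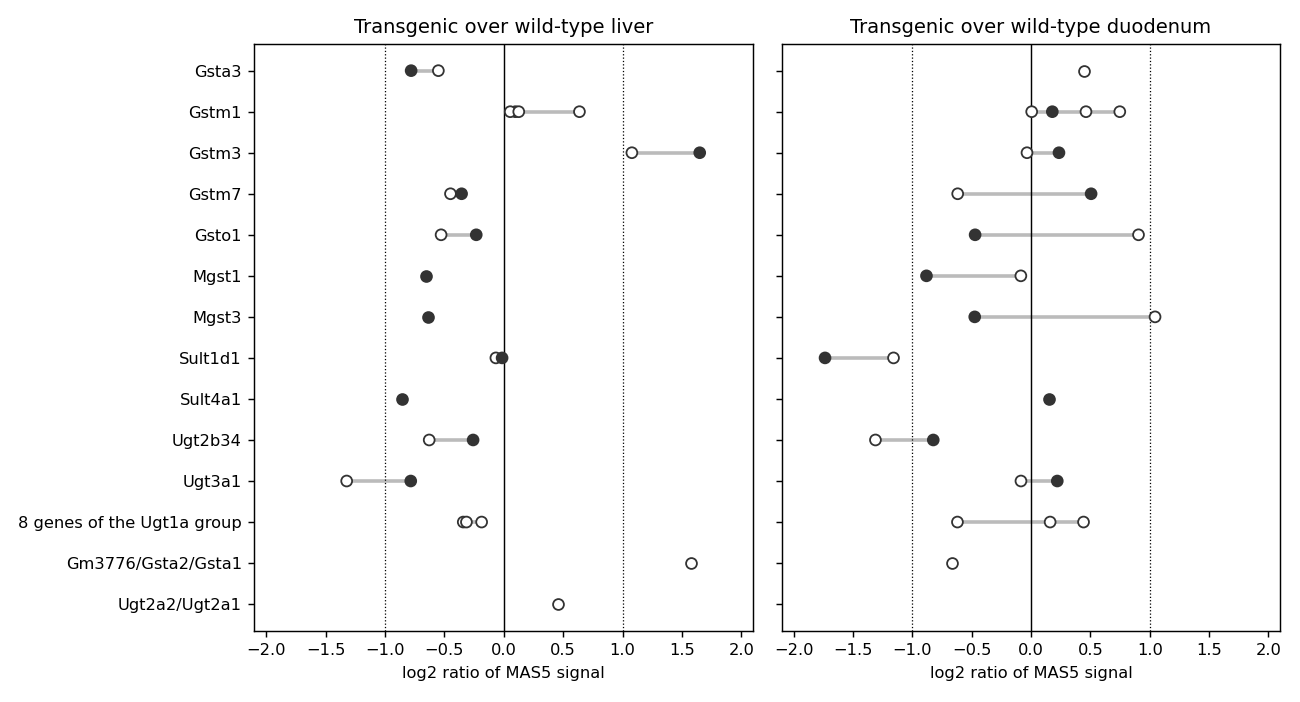
Log2 ratio of transgenic over wild-type signal (horizontal) for each probe set of the genes with several, and for the shared probe sets. Each gene or shared group has its own row, with liver on the left and duodenum on the right. Filled symbols are the chosen probe sets, open symbols the other and the shared ones, and dotted lines mark 2-fold. Open points of a gene lie within 0.57 of its filled point in liver and up to 1.52 from it in duodenum.

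The donor and export genes around the enzymes gave few calls in liver, where 4.77% of all genes were called higher and 3.63% lower. UDP-glucuronic acid supply had 1 of 6 genes called higher and 0 lower (median 0.36), and that gene was Ugdh, the enzyme that makes UDP-glucuronic acid, at 5744.6 in wild-type and 14813.4 in transgenic liver (2.58-fold higher). Ugdh was thus higher in transgenic liver while 9 of 10 glucuronosyltransferase ratios were negative on the deposited scale. Negative ratios made up 48.8% of all genes and 77.4% of those with a mean signal of 10000 or more. The 10 include 2 Ugt3a genes, of the subfamily that uses other sugar donors. A link between Ugdh and these ratios was not tested. Neither glutathione synthesis and turnover (14 genes, median 0.00) nor PAPS supply (10 genes, median 0.11) had a call in liver. Gsr, the glutathione reductase, gave 1766.9 and 2877.2 (1.63-fold). Mercapturate and conjugate breakdown had 0 higher and 1 lower of 7 (median -0.56), Nat8f1, an N-acetyltransferase gene, at 8199.6 and 3226.3 (2.54-fold lower). Conjugate export had 0 higher and 1 lower of 8 (median -0.28), Abcc3, a basolateral exporter of glucuronides, at 2602.4 and 1218.3 (2.14-fold lower). The regulators had no call among 11, with Nfe2l2, which encodes NRF2, at 2767.4 and 4667.6 (1.69-fold higher) and Nr1i3, the receptor CAR, at 2405.2 and 1336.5 (1.80-fold lower). Relatives outside the naming rule had 1 higher and 0 lower of 9, the prostaglandin E synthase Ptges, at 161.1 and 397.7.

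In duodenum glutathione synthesis and turnover had 5 higher and 2 lower of 14 (median 0.45). Over all genes 8.82% were called higher and 11.3% lower there. The part of tissue make-up and RNA quality in the duodenal calls of these lists was not tested. Gclm, the modifier subunit of the first enzyme of glutathione synthesis, gave 2640.8 and 6818.3 (2.58-fold higher), and Anpep, a brush border peptidase, 16959.8 and 67049.9 (3.95-fold higher). Chac2, which degrades glutathione, gave 1131.7 and 177.6 (6.37-fold lower), and Cth, which makes cysteine, 1981.3 and 515.4 (3.84-fold lower). Mercapturate and conjugate breakdown had 2 higher and 0 lower of 7 (median 0.37), the aminoacylases Acy1 and Acy3, at log2 ratios of 1.28 and 1.40. PAPS supply had 0 higher and 1 lower of 9 (median 0.14), Slc13a1, a sulfate transporter, at 7433.1 and 2475.0 (log2 ratio -1.59). UDP-glucuronic acid supply (median -0.47 over 6) and conjugate export (0.12 over 7) had no call, and related enzymes had 0 higher and 2 lower of 9 (median -0.08), Ptges and Hpgds. The regulators had 2 higher and 2 lower of 11 (median 0.08), with Nfe2l2 at 8122.2 and 3619.4 (2.24-fold lower) and Ahr at 2123.3 and 590.2 (3.60-fold lower). In liver Ahr gave 2019.8 and 2274.0.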

How the data were processed

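Signal intensity per probe set was deposited by the authors as MAS5 values, per the submitters' processing notes. Each array has a mean signal, trimmed by 2% at both ends, of 500.0, so the arrays were scaled to a common mean. No detection calls were used here, and scanner files were not used here. Genes were named by the platform annotation: of 45101 probe sets, 34958 had 1 symbol, 932 several and 9211 none, and 64 are controls. From these values the following were computed here in Python 3.11.15 with numpy 2.4.6 and pandas 2.3.3 (loess with statsmodels 0.14.6, span 0.4). Signals below the floor of 129.3 were raised to it, each gene was read from its probe set of highest mean log2 floored signal, and log2 ratios of pairs of arrays were called at 2-fold. The steps were tested on simulated data. Arrays were grouped by their labels, 1 per group. No test was run. Up to 9 alternatives were tried per comparison: no floor, floors at the 20th (40.7) and 60th (266.3) percentile, the mean of a gene's probe sets, probe sets ending in _s_at or _x_at left out, quantile, loess, spiked-control scale, and calls at 1.5-fold.

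The members, the lists of pathway genes and markers and the alternatives were chosen with earlier results of these data known. Members named with values by rule were those called between genotypes in either tissue, the 3 brightest of each class in each wild-type tissue, and a list of textbook AhR-linked or sex-linked genes, 31 in all; the other 15 are summarised or named after their values were seen. Of each list the text gives the count, the median and some of its highest and lowest genes, others being chosen after their values were seen. Precision is limited by the number of arrays. Between probe sets of 1 gene, over all genes, the median absolute difference in log2 ratio was 0.37 in liver, 0.66 in duodenum and 0.62 between tissues.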

Additional observations from a re-analysis of the deposited data

Results flagged for a closer look

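A pair of genes, both glucuronosyltransferases, differed between the tissues under the same genotype contrast, moving by 1.5-fold or more one way in liver and the other way in duodenum. Ugt2b35 was higher in transgenic liver and lower in transgenic duodenum, with a difference of 1.80 between the log2 ratios. Ugt2b38 was lower in transgenic liver, with 1 array at the floor, and higher in transgenic duodenum, with a difference of -2.22. In both cases the difference was not tested, since each ratio rests on 1 array per group.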

How the results depend on the processing

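No called gene ratio changed sign under any alternative, and no class median did except the 3 in liver on the spiked-control scale. A value counted as moved where it shifted by more than the median difference between probe sets of 1 gene. With no floor, 9 members were higher and 7 lower in liver, 5 higher and 9 lower in duodenum, and the sulfotransferase tissue median was 1.66. With the floor at the 20th percentile these were 8 higher and 6 lower in liver, 5 higher in duodenum and 1.70, and at the 60th percentile the tissue median was 1.66. On the spiked-control scale the liver medians were 0.45 for glutathione transferases, 0.44 for sulfotransferases and 0.21 for glucuronosyltransferases, with 8 higher and 0 lower in liver and 9 lower in duodenum. At 1.5-fold, 8 were higher and 13 lower in liver, beside 13.7% and 12.1% of all genes, and 13 lower in duodenum, beside 26%. The shares of all genes called were not computed under the floor and spiked-control settings. The member counts under those settings thus have no background beside them. The liver calls of Gsta2, Gstm2, Gstm3, Gstp1 and Sult5a1 held under all 8 alternatives that keep the 2-fold line. Those of Sult2a8, Ugt2b37 and Ugt2b38 were lost on the spiked-control scale (-0.93, -0.41 and -0.33). Ugt2b38, at 260.9 and 104.6 in the livers, also had no ratio with the 60th percentile floor, being under it on both arrays. In duodenum Gstk1, Gstm5, Sult1d1, Ugt2b5 and Ugt2b38 kept their calls under those 8. Gstz1, Sult1a1 and Sult2b1 lost theirs under quantile and loess normalization (Sult1a1 also with the 60th percentile floor). Other members named by rule became called lower: Mgst1, Sult1b1 and Ugt2b35 under both normalizations, Ugt2b36 under quantile and Ugt2b34 under loess. Both normalizations move the all-gene median from -0.11 to 0.04. Mgst3 turned to 0.29 in duodenum with the mean of its probe sets, and Gstm1 and Gstm3 turned negative there under quantile and loess. Gstm3 also turned negative there with probe sets ending in _s_at or _x_at left out. The causes were not tested. Signals under the floor give bounds, and 1 pooled array per group gives no spread. No paired analysis was possible because each group holds 1 array.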
